A study of Mus musculus with 9 samples.

Results

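The 8 genes described here, Hmgcs1, Fdps, Fdft1, Sqle, Cyp51, Stard4, Insig1 and Srebf2, encode enzymes of cholesterol synthesis, a carrier that moves cholesterol inside cells, and proteins that set the rate of the pathway. None of the 8 is a receptor for lipoprotein uptake. They were found in the deposited table by the Ensembl identifiers that carry these symbols, and all 8 were present among its 45904 identifiers. All 8 also were among the 17601 genes that passed the filter on low values and were tested. RNA came from whole sciatic dorsal root ganglia, which hold the cell bodies of the sensory neurons of the sciatic nerve together with satellite glia, Schwann cells, vessels and macrophages. All mice were C57BL/6, and each library was made from ganglia of 2 mice taken 24 h after surgery. The young sham group was 8 to 10 weeks old and the aged sham group 20 to 22 months old, both after a sham operation. The aged injury group was 20 to 22 months old, after sciatic nerve injury, and each of the 3 groups had 3 libraries. An injured group of young mice was not analysed here, so the response to injury is known for aged mice alone. Since each library mixes mice and all cells of the ganglion, fewer cells of a type and less RNA per cell cannot be told apart.

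Cells build cholesterol from acetyl-CoA through the mevalonate pathway, whose early steps also supply the lipid anchors of many proteins and whose later steps turn the linear molecule squalene into the ring system of sterols. Myelin is rich in cholesterol, and nerve tissue makes most of its own because the lipoproteins of the blood enter it poorly. The pathway is held in balance by SREBP2, a membrane-bound transcription factor encoded by Srebf2. When sterols are scarce, SREBP2 is cut free and switches on nearly all genes of the pathway, and when sterols are plentiful the INSIG proteins keep it in the endoplasmic reticulum.

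SREBP2 reaches its targets through sterol regulatory elements in their promoters, often beside a CCAAT box bound by NF-Y and a GC box bound by Sp1, so the promoters are printed for the members that the RefSeq promoter table (build GRCm38.p6) holds. Those were Hmgcs1, Cyp51, Insig1 and Srebf2. Each window runs 5′ to 3′ on the strand of the gene, from 250 bases before to 50 bases after the annotated start. Capitals mark every match, on either strand, to TCACNCCAC (a sterol regulatory element), its shorter form TCACNCCA, CACGTG (an E-box), CCAAT or GGGCGG. The windows were chr13:119690101-119690400 (plus strand) for Hmgcs1, chr5:4104648-4104947 (minus strand) for Cyp51, chr5:28071162-28071461 (plus strand) for Insig1 and chr15:82147019-82147318 (plus strand) for Srebf2.
Hmgcs1: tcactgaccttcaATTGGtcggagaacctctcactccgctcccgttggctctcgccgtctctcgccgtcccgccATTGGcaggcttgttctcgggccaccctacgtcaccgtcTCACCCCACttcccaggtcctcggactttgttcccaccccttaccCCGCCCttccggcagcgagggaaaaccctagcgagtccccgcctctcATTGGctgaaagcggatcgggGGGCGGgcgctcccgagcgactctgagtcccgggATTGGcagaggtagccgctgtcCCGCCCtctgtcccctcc
Cyp51: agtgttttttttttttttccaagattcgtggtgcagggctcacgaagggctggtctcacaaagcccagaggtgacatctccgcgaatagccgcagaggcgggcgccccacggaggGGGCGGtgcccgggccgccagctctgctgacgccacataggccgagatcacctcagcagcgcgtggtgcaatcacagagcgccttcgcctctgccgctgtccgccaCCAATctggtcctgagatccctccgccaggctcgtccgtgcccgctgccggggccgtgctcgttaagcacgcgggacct
Insig1: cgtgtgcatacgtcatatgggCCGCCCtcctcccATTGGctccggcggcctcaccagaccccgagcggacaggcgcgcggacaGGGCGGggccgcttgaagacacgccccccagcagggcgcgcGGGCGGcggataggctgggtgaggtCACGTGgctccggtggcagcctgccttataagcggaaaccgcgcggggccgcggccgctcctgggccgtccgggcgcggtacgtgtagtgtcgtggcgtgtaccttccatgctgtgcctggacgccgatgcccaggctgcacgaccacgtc
Srebf2: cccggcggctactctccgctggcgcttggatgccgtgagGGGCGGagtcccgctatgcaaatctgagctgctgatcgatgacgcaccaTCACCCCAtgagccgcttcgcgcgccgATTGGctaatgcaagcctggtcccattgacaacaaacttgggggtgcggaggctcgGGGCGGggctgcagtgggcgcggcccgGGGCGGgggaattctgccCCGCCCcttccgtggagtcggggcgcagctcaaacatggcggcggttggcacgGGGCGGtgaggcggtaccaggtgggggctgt
The longer form of the sterol regulatory element was found in the Hmgcs1 window alone among these, at position -137 from the start, where 1.24% of the 32851 promoters in the table held a match. The shorter form was added after the sequences had been read. It lies inside the longer match in Hmgcs1, also matched Srebf2 at position -162 and was present in 4.36% of promoters. The E-box was found in Insig1 at position -101 (7.15% of promoters). Hmgcs1 held 4 CCAAT boxes and the other windows 1 each (37.4% of promoters held a match), and GC boxes numbered 3, 1, 3 and 5 in the order printed (35.7% of promoters). A match describes letters only, and no match says only that these letters are not in this window.

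All 8 genes were well expressed. FPKM is a level per length of gene, so levels can be set side by side between genes, within the limit that the gene lengths the authors used are not given. The steps of the FPKM values pointed to 1241 bases for Fdps, where 4208 are annotated, and to 3233 for Hmgcs1, where 4594 are annotated, while Sqle and Stard4 matched their annotation. Shorter lengths than annotated were also found for Fdft1 (2860 against 4227 bases) and Srebf2 (4989 against 7184 bases). The same held, by less, for Insig1 (2697 against 3093 bases) and Cyp51 (4286 against 4415 bases). Places in the order of levels therefore depend on the lengths used for these genes as well as for Fdps and Hmgcs1. The reads of Fdps rest on its shorter length. Hmgcs1 was by far the most abundant, with a mean over the 9 libraries of 252 FPKM, above 99.2% of the genes tested, and Stard4 the least, at 27.8 FPKM, above 86.3%. In young sham ganglia the order was Hmgcs1, Fdft1, Sqle, Insig1, Srebf2, Cyp51, Fdps and Stard4. The libraries of neighbouring genes in that order did not overlap except for Srebf2 (39.5 to 48.5 FPKM) and Cyp51 (41.9 to 45.6 FPKM). In aged sham ganglia Srebf2 stood above Insig1 in mean level, but their libraries overlapped (51.0 to 52.0 FPKM against 41.8 to 51.6 FPKM). After injury the order of the means was that of young sham ganglia, with overlap of Cyp51 (from 42.8 FPKM) and Fdps (up to 43.7 FPKM). Counts read back from the steps of the FPKM values gave between 423 reads for Fdps and 13420 reads for Hmgcs1 per library. The spread within a group ran from a coefficient of variation of 1.03% for Srebf2 in aged sham to 12.12% for Stard4 in the same group.

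**Figure D1:**
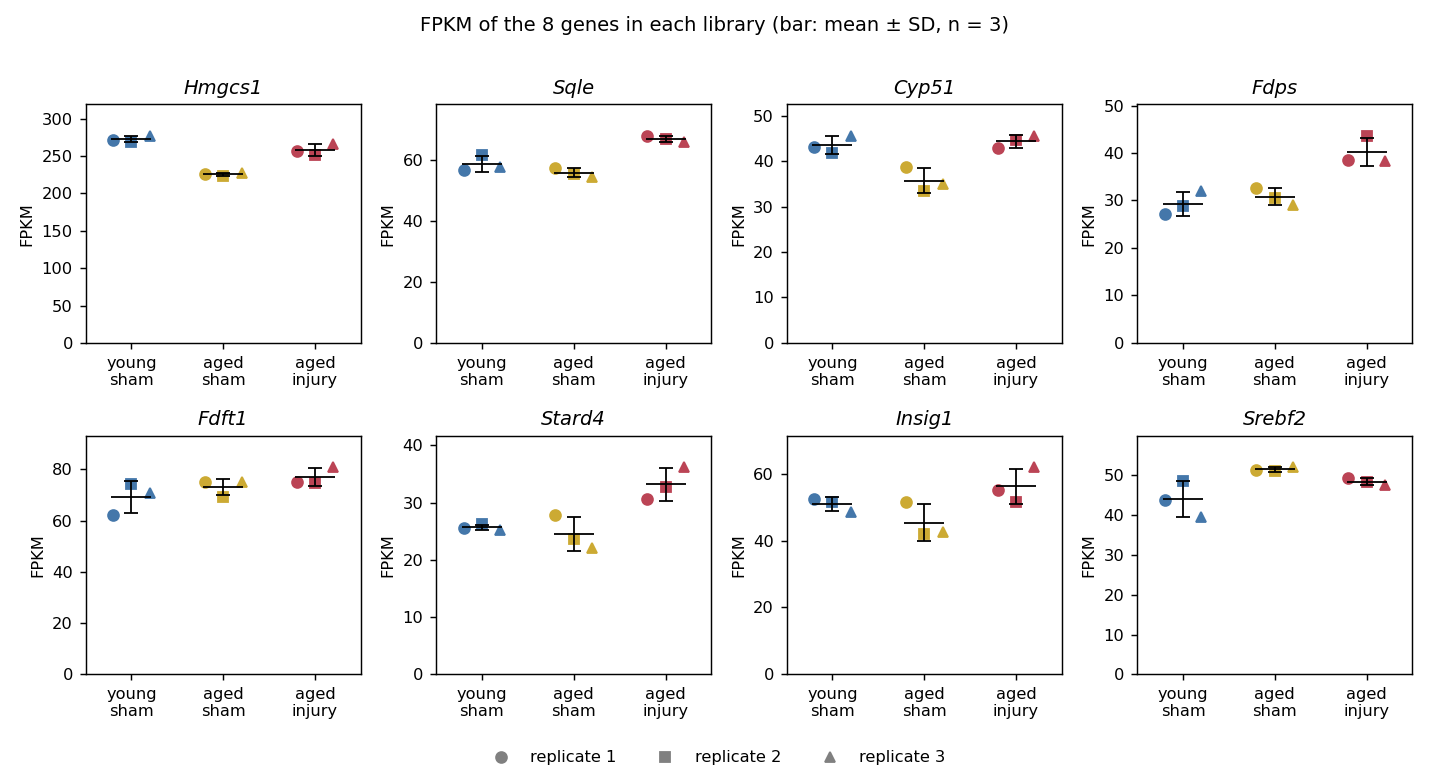
FPKM of each of the 8 genes (vertical axes, each from 0) in the 3 libraries of each group, with a symbol per replicate and black bars for the mean and SD (n = 3). Hmgcs1 and Cyp51 dip in aged sham, Sqle, Fdps and Stard4 stand highest after injury, and Fdft1 had no call in any comparison.

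Several facts of the libraries bear on what follows. Levels of sex-linked genes differed between the groups: Xist, expressed in females, was at 0 to 0.02 FPKM in young sham, whereas aged sham replicate 1 had 1.75 FPKM and the other aged libraries had 9.77 to 13.0 FPKM. Ddx3y, on the Y chromosome, was at 13.8 to 15.7 FPKM in young sham, whereas aged sham replicate 1 had 10.9 FPKM and the others 0 to 0.0133 FPKM. Age and sex therefore cannot be told apart in any comparison with young ganglia. Neuron markers were abundant, with 12 genes summing to 6166 to 7720 FPKM, and no marker on the lists of neurons, Schwann cells, satellite glia or macrophages was at 0 in every library. The injury marker Atf3 was at 191.8 to 278 FPKM in the aged injury libraries and at 16.3 to 95.6 FPKM in the sham libraries. The top of that sham range was aged sham replicate 1. Skeletal muscle genes, 7 in all, summed to between 3.52 and 375 FPKM with wide spread inside each group, and none of the 7 was called in any of the 3 comparisons. Depth, estimated from the same steps and annotated gene lengths, was about 11156000 to 16154000 reads per library.

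Age without injury was addressed by setting the aged sham libraries against the young ones. Of the 8 genes 2 fell, Hmgcs1 by 1.21-fold and Cyp51 by 1.22-fold, an early and a late enzyme of the pathway, and none rose. Over all genes 4.02% were called at a limma adjusted p under 0.05, 2.53% higher and 1.49% lower. Each p-value reflects how far these libraries, each from 2 mice, spread around their group.

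Hmgcs1 (ENSMUSG00000093930, chromosome 13, 119690379 to 119708260) makes HMG-CoA, an early intermediate of the pathway. Young sham libraries had 272, 269 and 278 FPKM, and aged sham libraries 226, 223 and 228 FPKM. The highest aged library lay well below the lowest young library. The level fell by 0.27 on the log2 scale (1.21-fold, SE 0.05, 95% interval -0.38 to -0.17, limma adjusted p = 0.0304). Cyp51 (ENSMUSG00000001467, chromosome 5, 4081145 to 4104746) removes a methyl group from lanosterol, the first sterol. It was at 43.2, 41.9 and 45.6 FPKM in young sham and at 38.7, 33.3 and 35.0 FPKM in aged sham, again with no overlap. It fell by 0.29 (1.22-fold, SE 0.07, 95% interval -0.44 to -0.14, limma adjusted p = 0.0457). Both calls lay close to the threshold and were lost with no filter on low values (limma adjusted p = 0.0535 and 0.0617) and with the 2 sham groups fitted alone (limma adjusted p = 0.0894 and 0.108). Of 9 fits with 1 library left out, Hmgcs1 kept its call in 3, without young sham replicate 2, aged sham replicate 1 or aged injury replicate 2 (limma adjusted p = 0.0272, 0.046 and 0.0458). It reached an adjusted p of 0.0506 to 0.122 without each of the other 6. Cyp51 kept its call in 2, without young sham replicate 2 or aged sham replicate 1 (limma adjusted p = 0.0409 and 0.0391), and had an adjusted p of 0.0664 to 0.159 without each of the other 7. The log2 change stayed between -0.28 and -0.26 for Hmgcs1 and between -0.35 and -0.24 for Cyp51 in these fits. Over all genes those fits called between 23 and 1536 genes, against 707 with all libraries.

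The RNA of the regulator was higher in mean level in aged sham, without passing the test. RNA levels do not show how much SREBP2 is cut free. Srebf2 (ENSMUSG00000022463, chromosome 15, 82147181 to 82205379) was at 43.7, 48.5 and 39.5 FPKM in young sham and at 51.1, 51.0 and 52.0 FPKM in aged sham. The groups did not overlap, and the young libraries spread far more widely than the aged ones. Its log2 change was 0.23 (95% interval 0.07 to 0.39, limma adjusted p = 0.0855), and it passed without young sham replicate 2 (log2 change 0.30, limma adjusted p = 0.027). Groups that did not overlap were common, at 29.2% of all genes (17.7% higher and 11.5% lower with age), against 3 of the 8. Insig1 (ENSMUSG00000045294, chromosome 5, 28071363 to 28078662), the sterol-dependent brake on SREBP2, was at 52.6, 51.4 and 48.6 FPKM in young sham and at 51.6, 41.8 and 42.6 FPKM in aged sham. Only aged sham replicate 1 reached the young range, and the log2 change was -0.17 (95% interval -0.38 to 0.04, limma adjusted p = 0.28). The other members had log2 changes of -0.07 for Sqle and Stard4, 0.07 for Fdps and 0.08 for Fdft1, none of which passed (limma adjusted p = 0.402 to 0.646). The 95% intervals of these 4 lay within -0.28 and 0.26. The median log2 change of the 8 genes was -0.07, against 0.05 over all genes tested.

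Markers of other cells differed in the same comparison, in which 2.53% of all genes were called higher and 1.49% lower. Of 14 genes of myelinating Schwann cells 5 fell, and their summed level was 3030 to 3492 FPKM in young sham and 2084 to 2235 FPKM in aged sham. Of 13 macrophage genes 6 rose, from a summed 61.1 to 68.5 FPKM to 105 to 163 FPKM. Of 11 satellite glia genes 1 rose and 2 fell, with sums of 915 to 1058 FPKM in young sham and 835 to 1040 FPKM in aged sham. Of 12 neuron genes 2 fell, Pou4f1 and Isl1, transcription factors of sensory neurons (limma adjusted p = 0.0169 and 0.0284), and none rose. Their sums were 7135 to 7720 FPKM and 6802 to 7670 FPKM. Lower levels without overlap were found in 6 neuron, 7 Schwann cell, 4 satellite glia and 0 macrophage genes (11.5% of all genes). Higher levels without overlap were found in 1 neuron, 1 Schwann cell, 2 satellite glia and 11 macrophage genes (17.7% of all genes). The part of these cells in the levels of Hmgcs1 and Cyp51 was not tested.

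How the aged ganglion responds within 24 h was read by setting injury libraries against sham libraries of the same age. In these, 4 of the 8 genes rose, namely Stard4, Fdps, Cyp51 and Sqle, by 1.20-fold to 1.35-fold, and none fell. Over all genes 4.11% were called, 2.45% higher and 1.65% lower. With the libraries set to equal medians Fdps alone was called among the 8 (limma adjusted p = 0.0471), and the 723 calls over all genes, 432 higher and 291 lower, became 287 higher and 294 lower. With the 2 aged groups fitted alone, Sqle kept its call (limma adjusted p = 0.0441), and Cyp51, Fdps and Stard4 did not (limma adjusted p = 0.0621 to 0.0999).

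Stard4 (ENSMUSG00000024378, chromosome 18, 33199355 to 33213862), a soluble carrier that shuttles cholesterol between membranes, had the largest fitted change of the 8. It was at 27.9, 23.7 and 22.1 FPKM in aged sham, compared with 30.7, 32.7 and 36.2 FPKM after injury. The groups did not overlap, and the highest sham library was aged sham replicate 1. The level rose by 0.44 on the log2 scale (1.35-fold, SE 0.09, 95% interval 0.23 to 0.64, limma adjusted p = 0.0327). Fdps (ENSMUSG00000059743, chromosome 3, 89093588 to 89101959) makes farnesyl diphosphate, the branch point between sterols and the lipid anchors of proteins. It was at 32.7, 30.6 and 29.1 FPKM in aged sham, compared with 38.6, 43.7 and 38.4 FPKM after injury. It rose 1.30-fold (log2 change 0.38, SE 0.08, 95% interval 0.20 to 0.57, limma adjusted p = 0.0338).

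Cyp51 was at 42.8, 44.6 and 45.7 FPKM after injury, above every aged sham library. It rose 1.24-fold (log2 change 0.32, SE 0.07, 95% interval 0.17 to 0.46, limma adjusted p = 0.0327). Sqle (ENSMUSG00000022351, chromosome 15, 59315077 to 59331192) adds the oxygen to squalene that allows the rings to close, a second control point of the pathway. It was at 57.4, 55.4 and 54.5 FPKM in aged sham, compared with 68.0, 66.8 and 65.8 FPKM after injury, with no overlap. It rose 1.20-fold (log2 change 0.26, SE 0.05, 95% interval 0.15 to 0.38, limma adjusted p = 0.0248). Hmgcs1, at 257, 251 and 267 FPKM after injury, was also above every aged sham library but missed the threshold (log2 change 0.19, 95% interval 0.09 to 0.30, limma adjusted p = 0.0587). Higher levels in every injury library were found in 5 of the 8 genes, against 11.7% of all genes, and lower levels in 1, against 13.7% (25.4% in either direction).

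That 1 gene was Srebf2, at 49.3, 48.2 and 47.4 FPKM after injury, with a log2 change of -0.09 (95% interval -0.25 to 0.07, limma adjusted p = 0.541). Insig1 was at 55.2, 51.5 and 62.0 FPKM after injury, and its lowest injury library lay below aged sham replicate 1. Its log2 change of 0.31 did not pass (95% interval 0.10 to 0.52, limma adjusted p = 0.106). Fdft1 (ENSMUSG00000021273, chromosome 14, 63145150 to 63179578) joins farnesyl units into squalene, the step that commits them to sterols. It was at 62.2, 74.4 and 70.9 FPKM in young sham, 75.0, 69.4 and 75.0 FPKM in aged sham and 75.0, 74.6 and 80.9 FPKM after injury. It thus sits between Fdps and Sqle in the pathway, yet its log2 change was 0.07 (95% interval -0.10 to 0.24, limma adjusted p = 0.649), a difference between genes that was not tested. An exon of Fdft1 overlaps Ctsb, a lysosomal protease gene on the opposite strand at 340 to 444 FPKM, and the handling of strand is not given in the sources used here. Exons of Cyp51 likewise overlap Akap9 (4.58 to 6.09 FPKM, opposite strand), those of Hmgcs1 an antisense gene model and those of Fdps a gene model on the same strand. Over the 8 genes the median log2 change was 0.29, against -0.01 over all genes.

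Aged sham replicate 1 stood apart from the other aged sham libraries here. It carried Y-linked RNA and had 95.6 FPKM of Atf3 where replicates 2 and 3 had 27.1 and 27.3 FPKM. It was also the highest aged sham library for 6 of the 8 genes, a count given without the share over all genes. For Fdft1 it was nearly level with replicate 3 (74.99 against 74.97 FPKM). Stard4 (27.9 against 23.7 and 22.1 FPKM), Insig1 (51.6 against 41.8 and 42.6 FPKM) and Cyp51 (38.7 against 33.3 and 35.0 FPKM) showed the gap best. Without it, Ddx3y was at most 0.0133 FPKM in the compared libraries, and 5 of the 8 genes were called. The log2 changes were then 0.53 for Stard4, 0.43 for Fdps, 0.41 for Insig1, 0.37 for Cyp51 and 0.28 for Sqle (limma adjusted p = 0.0141, 0.0435, 0.0401, 0.0181 and 0.0329). Over all genes, the 9 fits with 1 library left out, this one among them, called 151 to 740 genes, against 723 with all libraries. Other libraries mattered in the opposite direction. Leaving out aged sham replicate 2 or 3, or any 1 aged injury library, ended all 4 calls (limma adjusted p = 0.0664 to 0.119), in fits that called 151 to 355 genes in all against 723. Leaving out young sham replicate 1 ended those of Cyp51 and Stard4 (limma adjusted p = 0.0611 and 0.0642), and young sham replicate 3 that of Stard4 (limma adjusted p = 0.0575). Over the 9 fits the log2 change ran from 0.37 to 0.53 for Stard4, 0.32 to 0.43 for Fdps, 0.27 to 0.37 for Cyp51 and 0.25 to 0.28 for Sqle.

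**Figure D2:**
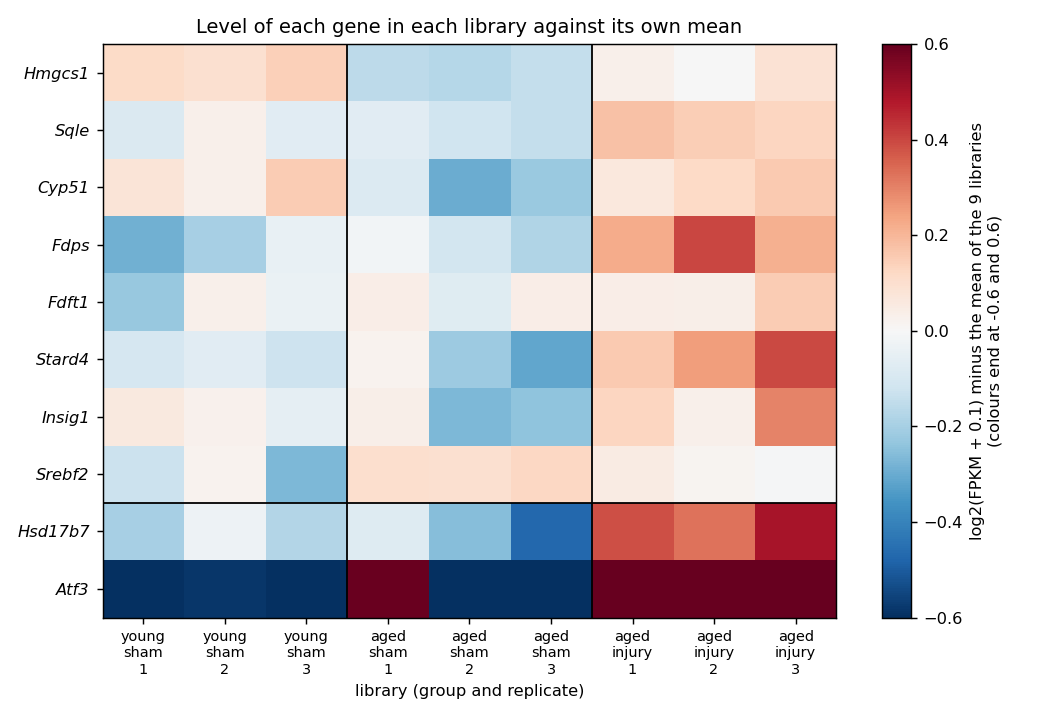
Level of the 8 genes and, below the line, of Hsd17b7 and the injury marker Atf3 in each of the 9 libraries, as log2(FPKM + 0.1) minus the mean of the 9 libraries of that gene (colour, red above and blue below). Aged sham replicates 2 and 3 are the bluest columns for Cyp51, Stard4 and Insig1, aged sham replicate 1 is paler, and the 3 aged injury columns are red for Sqle, Fdps and Stard4.

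Markers of other cells in the same libraries were as follows, where 2.45% of all genes were called higher and 1.65% lower. Of the 14 Schwann cell genes 1 fell and none rose, with sums of 2084 to 2235 FPKM after sham and 1842 to 2126 FPKM after injury. Of the 13 macrophage genes 1 rose, with sums of 105 to 163 FPKM and 110.4 to 152 FPKM. Of the 11 satellite glia genes 1 rose, with sums of 835 to 1040 FPKM and 795 to 878 FPKM. Of the 12 neuron genes 1 fell, with sums of 6802 to 7670 FPKM and 6166 to 6907 FPKM. The log2 change was below 0 in all 12 neuron genes and in 11 of the 14 Schwann cell genes. It was below 0 in 7 of the macrophage and 6 of the satellite glia genes, and above 0 in 47.7% of all genes. The part of any of these cells in the rise of the 4 genes was not tested.

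Aged injury was also compared with young sham, a comparison that shares libraries with both of the others, so its values are set beside theirs and add no independent evidence. Against 13.1% of all genes, 3 of the 8 were called, all higher (8.2% of all genes were called higher and 4.89% lower). Groups did not overlap in 5 of the 8, 4 higher and 1 lower, against 35.4% of all genes (19.9% higher and 15.5% lower). Fdps rose by 0.46 on the log2 scale (1.37-fold, 95% interval 0.28 to 0.64, limma adjusted p = 0.00921), and was called in each of the 9 fits with 1 library left out. Stard4 rose by 0.36 (limma adjusted p = 0.0316) and Sqle by 0.19 (limma adjusted p = 0.0381). Both calls were kept in 4 of those 9 fits. Stard4 lost its call without any 1 young sham library or without aged injury replicate 2 or 3 (limma adjusted p = 0.0567 to 0.116). Sqle lost its call without young sham replicate 1 or 3 or any 1 aged injury library (limma adjusted p = 0.0796 to 0.122). Srebf2 passed without young sham replicate 2 (log2 change 0.22, limma adjusted p = 0.0438) and not with all libraries (0.14, limma adjusted p = 0.21).

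Neither Hmgcs1 nor Cyp51, the genes that were lower in aged sham, passed in this comparison, and they were not tested against each other. All 3 injury libraries of Hmgcs1 (251 to 267 FPKM) stayed below all 3 young libraries (269 to 278 FPKM), as in 15.5% of all genes, with a log2 change of -0.08 (95% interval -0.19 to 0.03, limma adjusted p = 0.314). Cyp51 overlapped the young range, with a log2 change of 0.03 (95% interval -0.12 to 0.17, limma adjusted p = 0.831), which became -0.05 with equal library medians. Mean levels were lowest in aged sham for 5 of the 8 genes, against 25.7% of all genes, and highest after injury for 6, against 33% of all genes. Both held for 4 of the 8, Sqle, Cyp51, Stard4 and Insig1, against 11.1% of all genes.

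**Figure D3:**
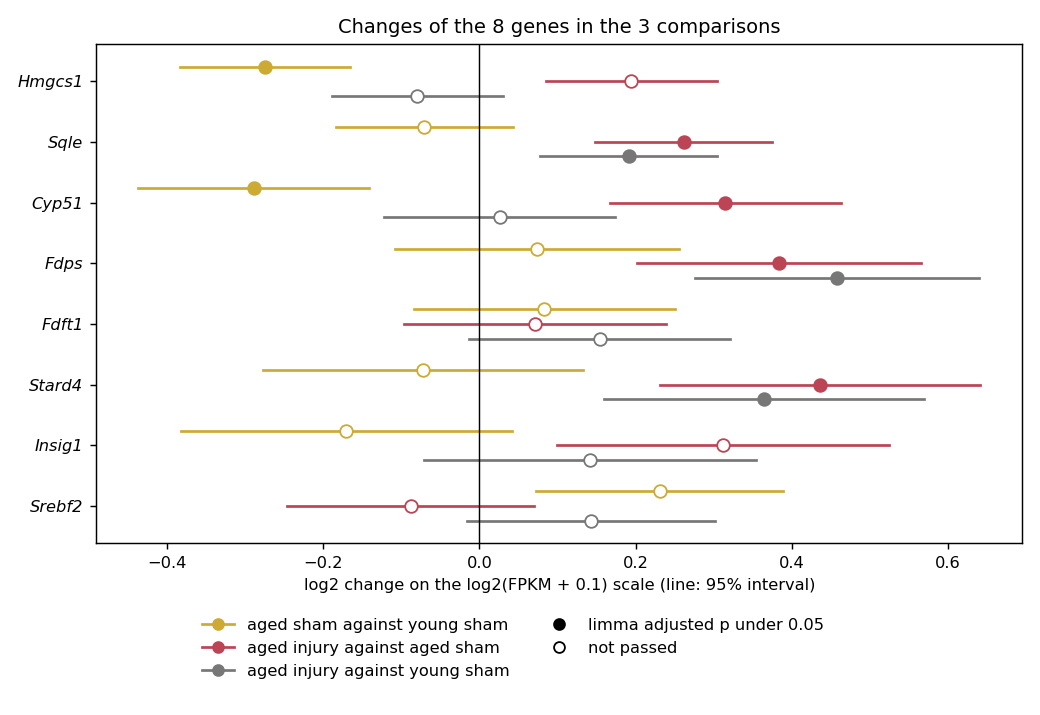
Log2 change (horizontal axis) of the 8 genes in the 3 comparisons, with lines for the 95% interval and filled points for a limma adjusted p under 0.05. Hmgcs1 and Cyp51 lie left of 0 for age, and Sqle, Cyp51, Fdps and Stard4 lie right of 0 for injury, with intervals clear of 0. The intervals of Hmgcs1 and Insig1 for injury and of Srebf2 for age are also clear of 0, with open points.

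The wider pathway was read from a list of 21 synthesis enzymes, of which 5 are among the 8 genes. With age 2 of the 21 fell, Hmgcs1 and Cyp51, none rose and 19 did not pass, with a median log2 change of 0.07. Over all genes 1.49% were called lower and 2.53% higher, and the median was 0.05. The values of single enzymes pointed both ways, from -0.37 to 0.28. Lss, which closes the rings of the first sterol, averaged 5.76 FPKM (SD 0.160) in young sham and 4.76 FPKM (SD 0.231) in aged sham (n = 3 each, log2 change -0.27, limma adjusted p = 0.0732). Like Hmgcs1 and Cyp51, it had no overlap of the groups. Of the 21 enzymes 5 were lower in this way, against 11.5% of all genes, and 1 was higher, against 17.7%.

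After injury 4 of the 21 enzymes rose (2.45% of all genes), none fell (1.65% of all genes) and 17 did not pass. The log2 change was above 0 in 17 of 21, with a median of 0.19 against -0.01 over all genes, of which 47.7% were above 0. Among the 16 enzymes that are not among the 8 genes, 1 rose, 12 were above 0 and the median was 0.16. Besides Fdps, Sqle and Cyp51 the gene that rose was Hsd17b7, a reductase of the late, sterol part of the pathway. It was at 21.0, 18.6 and 16.0 FPKM in aged sham, compared with 29.1, 27.8 and 31.3 FPKM after injury. Every injury library lay far above every sham library, and the rise of 0.67 on the log2 scale (1.59-fold, SE 0.10, limma adjusted p = 0.00988) was above that fitted for any of the 8 genes. Its call was lost without aged injury replicate 1 or 3 (limma adjusted p = 0.0514 and 0.0577). Dhcr7, a late enzyme, had a log2 change of -0.06 (limma adjusted p = 0.749). Against young sham 5 of the 21 rose after injury (8.2% of all genes) and none fell (4.89% of all genes). These were Fdps, Sqle, Hsd17b7, Mvd (28.7 ± 4.18 to 40.8 ± 5.59 FPKM) and Ebp (14.3 ± 1.68 to 19.2 ± 1.75 FPKM), the last 2 named after their values were seen.

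**Figure D4:**
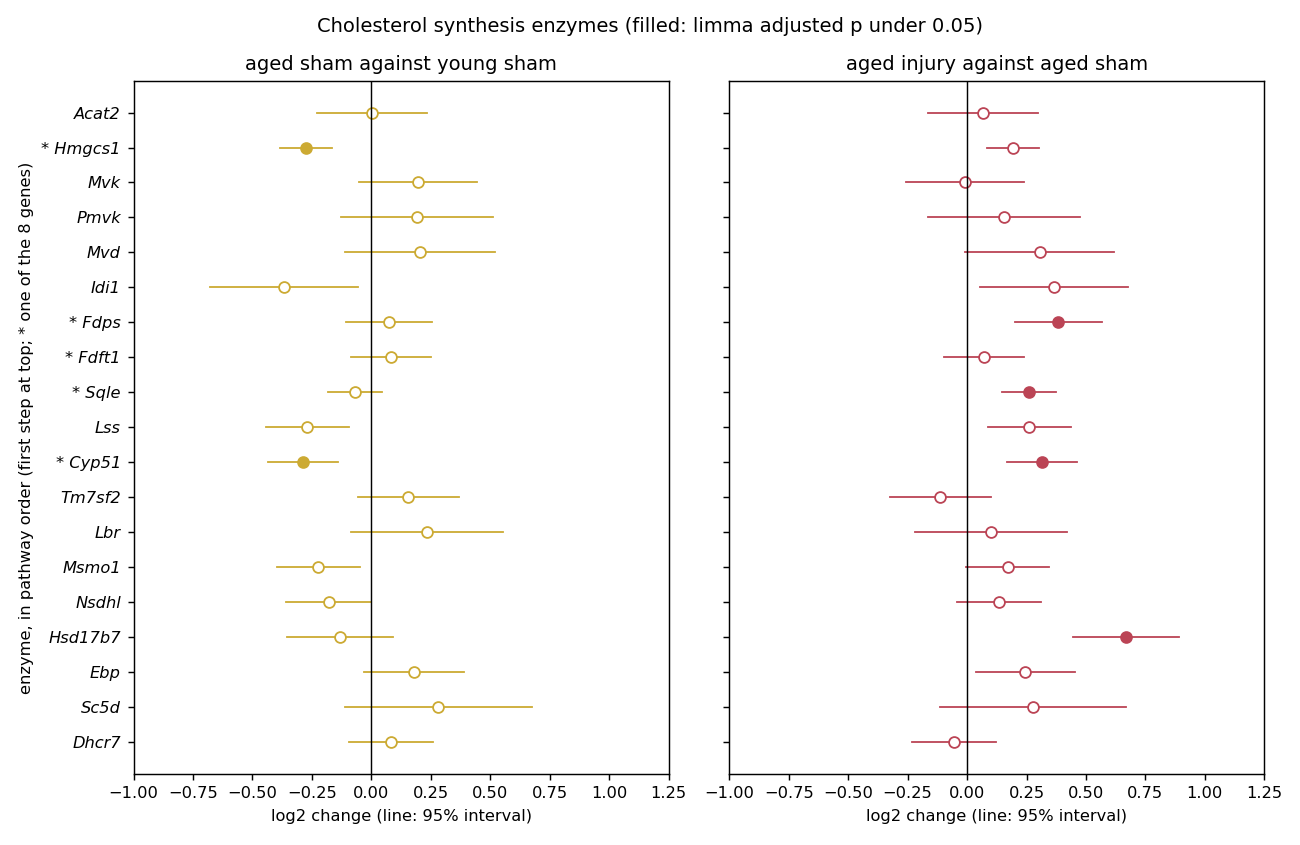
Log2 change (horizontal axes) of 19 of the 21 cholesterol synthesis enzymes in pathway order from top to bottom, with age on the left and after injury on the right, lines for the 95% interval and filled points for a limma adjusted p under 0.05. Of those plotted, with age 11 lie right of 0 and 8 left, and after injury 16 lie right and 3 left.

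Control and transport were read from lists of their own. Over all genes 2.53% were called higher and 1.49% lower with age, and 2.45% and 1.65% after injury. Of 9 genes of SREBP processing and control, which include Srebf2 and Insig1, 2 rose with age and 7 did not pass. Srebf1, which encodes the relative of SREBP2 that favours fatty acid synthesis, rose from 10.7, 11.7 and 10.6 FPKM in young sham to 16.4, 16.2 and 17.2 FPKM in aged sham. That is a log2 change of 0.59 (limma adjusted p = 0.00815), called in each of the 9 fits with 1 library left out. After injury none of the 9 was called by limma (2 of them, Insig1 and Srebf1, had an unadjusted p under 0.05, at 0.0088 and 0.0106).

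Of 12 genes of sterol uptake and transport, which include Stard4, 1 fell with age and 11 did not pass. That was Vldlr, a receptor of lipoproteins and reelin, from 5.63 ± 0.214 to 3.59 ± 0.125 FPKM (log2 change -0.63, limma adjusted p = 0.0167). The call was kept in 5 of the 9 fits with 1 library left out and lost without young sham replicate 1 or 3 or aged sham replicate 2 or 3 (limma adjusted p = 0.063 to 0.0811). After injury Stard4 was the 1 gene of the 12 that rose, and 11 did not pass.

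The genes whose pattern was most like that of the 8 were sought by Pearson correlation with the mean of their standardised log2 levels over the 9 libraries, among 8421 genes averaging 5 FPKM or more. The values describe these libraries, which share their groups and scaling. The closest were Slc35g2 (r = 0.973), Zfp729b (0.969), Hsd17b7 (0.966), Eif4e2 (0.959), Zfp251 (0.959) and Sbds (0.95), with Spearman rho of 0.917 to 0.967. Of these, Hsd17b7 alone is on the list of synthesis enzymes. Zfp729b, at 3.79 to 4.68 FPKM in young sham and 2.67 to 5.11 FPKM in aged sham, was at 8.31 to 9.83 FPKM after injury. Among pairs of the 8 genes, r between deviations from the group means over 9 libraries ran from -0.514 to 0.838. The highest was that of Stard4 and Insig1, a pair picked for that reason, and the group means came from the same libraries. Srebf2 ran against Hmgcs1 and Cyp51 (r = -0.792 and -0.669 over the 9 libraries, and -0.487 and -0.514 between deviations from the group means). With the other members its r went both ways, from -0.229 (Insig1) to 0.415 (Fdft1) over the 9 libraries. Between deviations it ran from -0.442 (Fdps) to 0.642 (Sqle).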

How the data were processed

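RNA of 9 libraries (3 groups of 3) was analysed from a table of FPKM that the authors deposited. Build mm10 and, without roles, FastQC 0.10.1, HTSeq 0.6.0, TopHat2 2.0.12 (with Bowtie2 2.2.3), limma 3.22.7, edgeR 3.8.6, SAMtools 0.1.19 and R 3.1.1 are named in the submitters' processing notes, with annotation and strand handling not given in the sources used here. Libraries were assigned by age, treatment and number in the column names. Symbols and positions came from GENCODE M21, on the same build. The 17601 genes averaging 0.2 FPKM or more were tested with limma 3.58.1 (R 4.3.3, variance trend) on log2(FPKM + 0.1), which understates changes of low genes. All 9 libraries entered 1 fit, tests were two-sided, and p-values were adjusted by Benjamini-Hochberg over all genes tested, with calls at under 0.05. Intervals are 95% and not adjusted. In 17578 of these genes (99.9%) a multiple of up to 20000 brought every value within 0.001 of a whole read, which gave relative depths and, with annotated gene lengths, approximate reads. The fit was tested on simulated data with independent normal noise per gene. Those data hold no odd libraries or scaling differences, so the test does not cover them. The members and lists were chosen with earlier results of these data known, so counts describe them. The genes named were the 8 members, up to 3 genes per list with the smallest p for age and for injury, sex-linked genes, Atf3, and the 6 genes most like the members. Alternatives were other pseudocounts, filters, scalings and designs, array weights, voom on recovered reads, and each library left out. Some genes of the lists are counted but not reported here by name.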

Additional observations from a re-analysis of the deposited data

How the results depend on the processing

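Each of the 8 genes rests on at least 423 reads in every library, and with 3 libraries a group most of their calls lay near the threshold. Age calls among the 8 genes (2) became 0 with no filter, with the 2 compared groups alone and with the replicate block. Injury calls (4) became 1 with equal medians, 1 with the 2 groups alone and 0 with the replicate block. Calls of injury against young sham (3) became 1 with equal medians and 1 with the block. With each library left out they ranged from 0 to 3, 0 to 5 and 1 to 3. Over all genes, 707 age calls became 239 with no filter, 31 with the 2 groups alone, 101 with the block and 2020 with array weights, and 1072 with voom on recovered reads, an alternative chosen after seeing the data. The 723 injury calls became 302 with the 2 groups alone and 273 with the block, and the 2304 calls of injury against young sham became 3755 with array weights. With each library left out they ranged from 23 to 1536, 151 to 740 and 869 to 2365. Calls for age split into 445 higher and 262 lower, against 281 and 536 with equal medians, 587 and 485 with voom and 388 and 509 under quantile normalization. Those of injury against young sham split into 1444 and 860, against 1168 and 1241 under quantile normalization and 1029 and 1670 with equal medians. Array weights added Srebf2 for age (adjusted p = 0.0418). Cyp51 for injury against young sham turned from 0.03 to -0.0506 with equal medians and to -0.0011 without young sham replicate 2 (-0.0011 to 0.0597 with each library left out). The labels do not say that replicate numbers pair libraries, and not every same-numbered pair correlated above 0.1. Between the aged groups the correlation of deviations was 0.245, 0.27 and 0.062 for the same number and -0.26 to 0.041 for different numbers, so each aged library correlated best with its own number in the other aged group, a hint from the data and not the design. With young sham, same-numbered libraries had -0.067 to -0.02. The causes of these differences were not tested, apart from the fewer samples or changed genes that some settings have by construction.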

Other observations

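Other lipid genes were looked at from the same lists, against 2.53% of all genes called higher and 1.49% lower with age. After injury the shares over all genes were 2.45% and 1.65%. Of 14 genes of sterol efflux, esterification and oxidation, Apod, a lipid carrier of glia, rose with age from 413 ± 25.0 to 690.4 ± 78.1 FPKM (SD, n = 3 each, log2 change 0.74, limma adjusted p = 0.0361), and 13 did not pass. Its call was kept in 3 of the 9 fits with 1 library left out, without young sham replicate 2, aged sham replicate 1 or aged injury replicate 3, and otherwise had a limma adjusted p of 0.0528 to 0.132. After injury Abca1, which exports cholesterol from cells, was the 1 gene of the 14 that rose. It went from 7.18, 8.32 and 9.31 FPKM in aged sham to 13.6, 12.6 and 11.4 FPKM (log2 change 0.60, limma adjusted p = 0.0169), with no overlap, in the same libraries in which Stard4, Fdps, Sqle and Cyp51 rose. That call was lost without aged sham replicate 2 or aged injury replicate 1 or 2 (limma adjusted p = 0.059 to 0.0816). Apoe, the main lipid carrier of nerve tissue, was at a mean of 1132 ± 4.86 FPKM after sham and 922 ± 70.8 FPKM after injury (log2 change -0.30, limma adjusted p = 0.0698).

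Of 12 genes of fatty acid synthesis and desaturation, Elovl6, which lengthens fatty acids, fell with age from 26.6 ± 1.91 to 20.4 ± 0.502 FPKM (log2 change -0.38, limma adjusted p = 0.036), and 11 did not pass. After injury none of the 12 was called by limma, and their median log2 change was 0.06. Of 10 genes of the non-sterol branch, which draws on the product of Fdps, none was called with age, and after injury Coq2, an enzyme of coenzyme Q synthesis, fell from 24.2, 22.5 and 22.0 FPKM to 18.8, 18.8 and 19.4 FPKM (log2 change -0.27, limma adjusted p = 0.0416). When each library was left out in turn, Elovl6 was called 2 times of 9, without young sham replicate 2 or aged injury replicate 1 (limma adjusted p otherwise 0.053 to 0.141). Coq2 was called 1 time, without young sham replicate 2 (otherwise 0.0586 to 0.134).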
